A study of Mus musculus with 8 samples.

Results

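The genes described here are 9 members of the retinoic acid pathway, *Aldh1a1*, *Aldh1a2*, *Rarb*, *Crabp1*, *Crabp2*, *Rbp4*, *Stra6*, *Cyp26b1* and *Dhrs3*, picked by name out of the 54532 genes of the deposited expression table. Each of the 9 names matched 1 gene, and all 8 libraries were used. Retinoic acid is a vitamin A derivative that acts as a ligand of nuclear receptors. Retinol reaches cells bound to the carrier RBP4 and can enter through the membrane receptor STRA6, retinol is oxidised to retinal, and retinal dehydrogenases of the ALDH1A family oxidise retinal to retinoic acid, while DHRS3 reduces retinal back to retinol. Inside the cell CRABP2 and FABP5 carry retinoic acid, heterodimers of retinoic acid receptors and retinoid X receptors read it out at response elements in DNA, and CYP26 enzymes degrade it. The pathway is best known in the heart for the epicardium, a mesothelial layer that makes retinoic acid through ALDH1A2 during development and again after injury.

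The study asked how cardiac reprogramming of the same fibroblasts differs between the infarcted heart and culture. MICFs, cardiac fibroblasts taken from adult mouse hearts after myocardial infarction, carried doxycycline-inducible lentiviral constructs for *Mef2c*, *Gata4* and *Tbx5* in 1 polycistron, for *Myocd*, for *Sall4* and for eGFP in every group, so no library is free of the factors. The mice were wild-type C57BL/6 males of 8 weeks. The *in vivo* cells were injected into the left ventricle at the time of coronary ligation, and the hosts drank doxycycline and received tacrolimus, methylprednisolone and mycophenolate mofetil, which suppress immunity. The *in vitro* cells stayed in a serum-containing reprogramming medium with doxycycline, the TGF-β receptor inhibitor SB431542 and the JAK inhibitor baricitinib. Depletion of CD45+ cells is described for purified MICFs, and it is not said whether the sequenced cells were purified. eGFP+ cells were sorted on Days 7 and 14 (1 week and 2 weeks), giving 4 groups of 2 libraries. The labels do not say which animals or wells the libraries came from, so the p-values measure only the spread between these libraries, which may be technical. The medium, the drugs and the surroundings changed together between heart and culture and cannot be told apart.

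The libraries held 12304242 to 14546904 fragments on genes. Transcripts of all 5 factors were detected in every library, from 1.75 FPKM for *Myocd* to 73.2 FPKM for *Gata4*, with no separation of the constructs from the mouse genes. The means of *Gata4*, *Tbx5*, *Myocd* and *Sall4* were lower *in vivo* at both weeks. At 2 weeks they were 37.8, 5.72, 1.86 and 4.26 FPKM *in vivo* against 68.8, 8.42, 4.46 and 14.0 FPKM *in vitro*. *Mef2c* averaged 5.59 FPKM *in vivo* and 5.21 FPKM *in vitro* at 2 weeks. Fibroblast markers summed to 10910 to 14759 FPKM *in vivo* and 2329 to 3766 FPKM *in vitro*, and 7 of 10 were higher *in vivo* at both weeks. The other 3, *Pdgfra*, *Tcf21* and *Ddr2*, were not among them. Their log2 fold changes were 0.06, 0.32 and -0.62 at 1 week and 0.20, 0.35 and -0.015 at 2 weeks. Cardiomyocyte markers summed to 15.7 to 46.0 FPKM *in vivo* and to 159 to 1216 FPKM *in vitro*, and 6 of 8 were lower *in vivo* at both weeks. The other 2 went the other way, *Pln* being higher *in vivo* at both weeks and *Myl2* at 2 weeks. Both reached 0.5 FPKM only in *in vivo* libraries. Macrophage markers were present on both sides, at 1809 to 2867 FPKM *in vivo* and 4563 to 5674 FPKM *in vitro*, so the sorted cells were not free of RNA of that type. *Lyz2* was the largest part of these sums, with means of 1392 FPKM *in vivo* and 3794 FPKM *in vitro* at 1 week. Of the 10 markers, 1 was higher *in vivo* and 1 lower at 1 week, and 1 was higher and 5 lower at 2 weeks.

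Values are FPKM, fragments scaled to gene length and library size, and changes are log2 fold changes of FPKM + 0.1 from limma with their standard errors (SE). A gene was called where p, adjusted over all genes by Benjamini-Hochberg, was under 0.01 and FPKM + 0.1 differed by a log2 fold change over 1 in either direction. At 1 week, 2 of the 8 members tested were higher *in vivo* and 1 was lower, beside 7.79% of all 15708 genes called higher and 5.07% called lower. At 2 weeks 4 were higher and 2 were lower, beside 9.02% and 8.05% of all genes. The median log2 fold change of the 8 members was 0.19 at 1 week and 1.15 at 2 weeks, while that of all genes was -0.0058 and -0.0034. *Crabp1* fell below the filter of 0.5 FPKM in 2 libraries and was not tested, and *Rbp4* and *Stra6* passed it only through *in vivo* libraries, so neither the counts nor the medians can serve as evidence of a direction. Without *Rbp4* and *Stra6* the median of the other 6 was -0.20 at 1 week, with its sign turned, and 0.25 at 2 weeks. The plot of the members by library shows all 9.

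**Figure D1:**
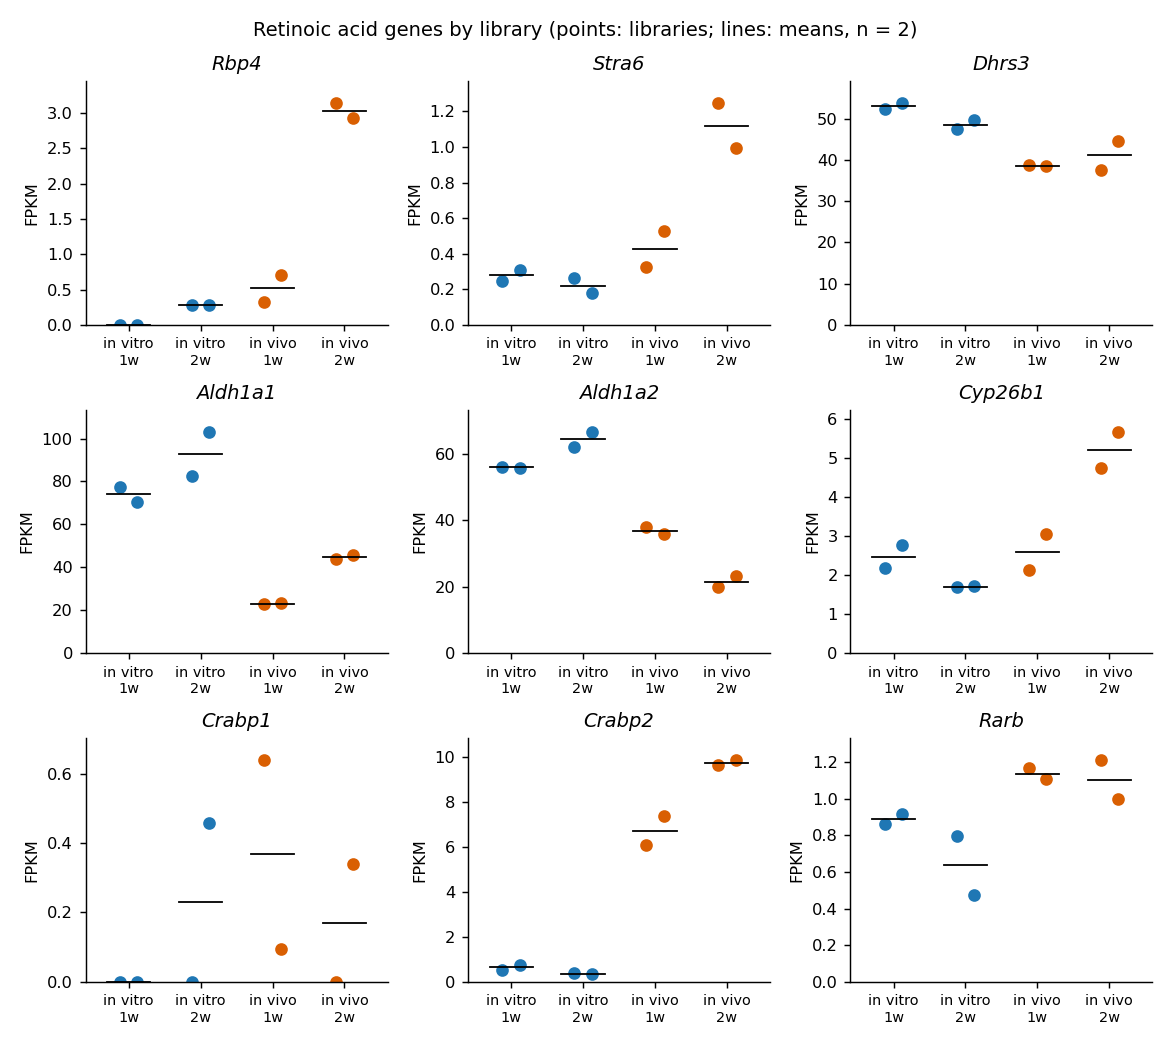
FPKM of each of the 9 members in the 8 libraries, 1 panel per gene, with points for libraries and lines for the mean of the 2 libraries of a group. *Crabp2*, *Rbp4*, *Stra6* and *Rarb* lie higher *in vivo* at both weeks, *Aldh1a1*, *Aldh1a2* and *Dhrs3* lie lower, and *Cyp26b1* separates at 2 weeks. *Rarb* and *Dhrs3* were called at neither week, and *Stra6* and *Aldh1a2* were called only at 2 weeks. Separation of 2 against 2 libraries arises easily, and its share over all genes was not worked out.

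The genes of retinol delivery, *Rbp4* and *Stra6*, were low in every library, and their FPKM were higher *in vivo* at 2 weeks. Both passed the filter only through *in vivo* libraries, so their calls cannot serve as evidence of a direction. *Rbp4* (chr19:38116620-38125321, minus strand, GRCm38), the plasma carrier of retinol, measured 0.329 and 0.710 FPKM *in vivo* at 1 week against 0 and 0 *in vitro*, and 3.14 and 2.93 FPKM against 0.279 and 0.283 FPKM at 2 weeks. These values rest on 5 and 12 fragments *in vivo* and none *in vitro* at 1 week, and on 46 and 42 against 5 and 5 fragments at 2 weeks. Every *in vivo* library was above both *in vitro* libraries of its week. With 3 fragments put in for each count of 0, the *in vivo* mean of *Rbp4* at 1 week was 3.41-fold higher and its lowest *in vivo* library 2.16-fold higher. These folds leave out the counting error of the *in vivo* libraries. The limma adjusted p at 1 week was 0.0018. At 2 weeks *Rbp4* was 10.8-fold higher *in vivo*, a log2 fold change of 3.04 (SE 0.38, limma adjusted p = 6.5e-04). The call at 1 week was lost without either *in vitro* library of that week, at an adjusted p of 0.011. Between the 2 *in vivo* time points *Rbp4* increased 5.84-fold (log2 fold change 2.41, adjusted p = 0.0092), the 1 member called in that comparison beside 1.23% of all genes called higher, and this call was lost when any 1 of the 8 libraries was left out (adjusted p from 0.016 to 0.045). *Rbp4* is also made by fat cells, of whose 6 listed markers *Adipoq* and *Lep* were at 0 in all 8 libraries. The 1 adipocyte marker that could be tested, *Fabp4*, which endothelium also expresses, was higher *in vivo* at both weeks (log2 fold changes 2.55 and 1.00), and the list summed to 13.3 to 18.9 FPKM *in vivo* and 2.79 to 7.60 FPKM *in vitro*. The part of fat cells in the result was not tested.

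*Stra6* (chr9:58063788-58153996, plus strand), the membrane receptor for the retinol carrier, measured 0.322 and 0.527 FPKM *in vivo* against 0.245 and 0.310 FPKM *in vitro* at 1 week. At 2 weeks it measured 1.25 and 0.994 FPKM *in vivo* against 0.260 and 0.177 FPKM, resting on 82 and 64 fragments against 21 and 14. The groups did not overlap at either week, but the gap at 1 week was narrow. The log2 fold change was 0.45 at 1 week (limma adjusted p = 0.35) and 1.94 at 2 weeks (SE 0.35, adjusted p = 0.0037). The call at 2 weeks was lost under 6 of 18 other settings, among them leaving out any 1 library of 2 weeks. Over these settings the log2 fold change at 2 weeks ranged from 0.80, under the fold threshold, to 2.34. The difference between the weeks, 1.49, did not pass the test (adjusted p = 0.11).

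Other genes of retinoid supply and storage moved in both directions, with 0 of 5 tested genes of 8 listed called by limma at 1 week (3 higher and 2 lower at an unadjusted p under 0.05). At 2 weeks, 1 was called higher and 2 were called lower. The 1 called higher, *Rbp7*, passed the filter only through *in vivo* libraries, so its call cannot serve as evidence of a direction. *Rbp7*, a cellular retinol-binding protein found in endothelium and fat, measured 0.833 and 0.535 FPKM *in vivo* and 0 and 0 *in vitro* at 1 week, and 1.85 and 4.29 against 0.302 and 0 FPKM at 2 weeks, with a log2 fold change of 3.87 at 2 weeks (SE 0.71, limma adjusted p = 0.0039). This call rests on 15 and 34 fragments *in vivo* against 3 and 0 *in vitro* and was lost under 7 of 19 other settings, among them leaving out either *in vivo* library of 1 week or replicate 2 of either group of 2 weeks (log2 fold change 1.77 to 5.66 and adjusted p up to 0.038 over all settings). Endothelial markers were also higher *in vivo*, at sums of 83.2 to 92.8 FPKM against 21.6 to 22.9 FPKM *in vitro* at 1 week. At 2 weeks the sums were 80.6 to 89.1 FPKM *in vivo* against 50.4 to 58.5 FPKM *in vitro*. Of the 8 markers, 7 were called higher at 1 week and 3 at 2 weeks. Their median log2 fold change went from 2.65 to 0.85, while that of *Rbp7* went from 2.94, which was not called, to 3.87. The part of endothelial cells in the result was not tested. *Lrat* and *Dgat1*, whose products esterify retinol for storage, were lower *in vivo* at 2 weeks by log2 fold changes of -2.46 and -1.25. *Lrat* measured 3.30 and 2.93 FPKM *in vitro* at 2 weeks against 0.281 and 0.795 FPKM *in vivo*. At 1 week it measured 0.437 and 0.601 FPKM *in vitro* against 0.0958 and 0.143 FPKM *in vivo*, a difference of -1.49 that was not called (adjusted p = 0.028). The *Lrat* call at 2 weeks was lost without either *in vitro* library of that week (adjusted p = 0.025 and 0.021) and with only the libraries of the comparison (0.028).

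The retinal dehydrogenases differed in opposite directions, with *Aldh1a1* and *Aldh1a2* lower and *Aldh1a3* higher *in vivo*. *Aldh1a1* (chr19:20492715-20643462, plus strand) measured 23.0 and 23.4 FPKM *in vivo* against 77.5 and 70.6 FPKM *in vitro* at 1 week. At 2 weeks it measured 44.0 and 45.7 FPKM *in vivo* and 82.6 and 103 FPKM *in vitro*. Both *in vivo* libraries were below both *in vitro* libraries at each week, by log2 fold changes of -1.67 (SE 0.11, limma adjusted p = 4.0e-05) and -1.04 (SE 0.11, adjusted p = 2.6e-04). The gap was thus 3.20-fold at 1 week and 2.07-fold at 2 weeks. *In vivo* levels were 1.94-fold higher at 2 weeks than at 1 week, a log2 change of 0.95 that stayed under the fold threshold, and the interaction of 0.63 was not called (adjusted p = 0.046). Without replicate 2 of the *in vitro* samples at 2 weeks, the log2 fold change at 2 weeks was -0.88 and no longer past the threshold.

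*Aldh1a2* (chr9:71215789-71296243, plus strand), the main retinoic acid producing enzyme of the embryo and the epicardium, measured 37.8 and 35.9 FPKM *in vivo* against 56.1 and 55.8 FPKM *in vitro* at 1 week, and 19.8 and 23.4 FPKM against 62.0 and 66.6 FPKM at 2 weeks. The groups did not overlap at either week, and the gap was wider at 2 weeks. The log2 fold change was -0.60 at 1 week (adjusted p = 0.0017, under the fold threshold) and -1.57 at 2 weeks (SE 0.09, adjusted p = 1.7e-05). The difference between the weeks was -0.97 (adjusted p = 0.0068), just short of the fold threshold and therefore not called.

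*Aldh1a3*, the third retinal dehydrogenase and not among the 9 members, measured 12.7 and 14.8 FPKM *in vivo* against 0.929 and 0.914 FPKM *in vitro* at 1 week, and 12.3 and 12.8 against 0.830 and 0.844 FPKM at 2 weeks. All 4 *in vivo* libraries lay above all 4 *in vitro* libraries, by a log2 fold change of 3.75 at each week (SE 0.11, limma adjusted p = 1.4e-06 and 1.2e-06). Added up, the transcripts of the 3 genes came to 127 to 171 FPKM *in vitro* and 73.5 to 81.9 FPKM *in vivo*. *Aldh1a3* made up 0.495 to 0.717% of that sum *in vitro* and 15.7 to 19.95% *in vivo*, shares that were worked out after the values had been seen. *Aldh1a7*, a close relative of *Aldh1a1* whose reads may be hard to separate from it, was lower *in vivo* at 1 week (log2 fold change -2.20) at levels of 0.334 to 2.72 FPKM, a call lost under 9 of 19 other settings (adjusted p up to 0.037).

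**Figure D2:**
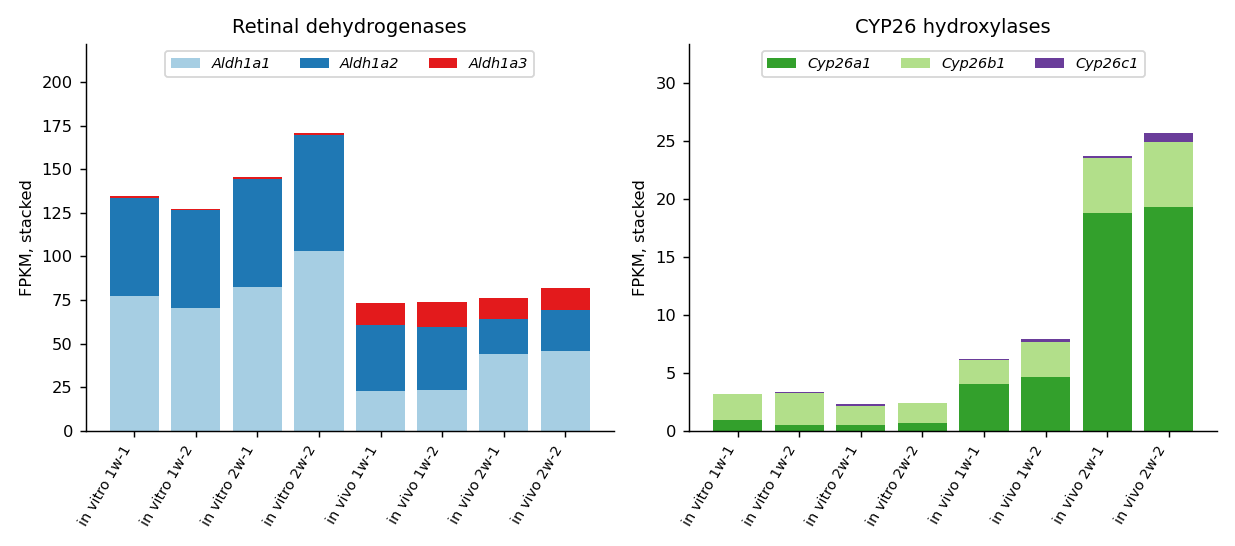
FPKM of the retinal dehydrogenases *Aldh1a1*, *Aldh1a2* and *Aldh1a3* (left) and of the degrading enzymes *Cyp26a1*, *Cyp26b1* and *Cyp26c1* (right), stacked in 1 bar per library. The *in vitro* dehydrogenase transcripts were nearly all *Aldh1a1* and *Aldh1a2*, and *Cyp26a1* reached 18.8 and 19.3 FPKM *in vivo* at 2 weeks.

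Markers of the mesothelium and epicardium, where *Aldh1a1* and *Aldh1a2* are also made, were lower *in vivo* than *in vitro*, as both genes were. The 12 markers summed to 331 to 349 FPKM *in vitro* and 30.5 to 34.4 FPKM *in vivo* at 1 week, and to 676 to 689 against 53.3 to 56.7 FPKM at 2 weeks. Of the 12, 10 were lower *in vivo* at both weeks (median log2 fold changes of -2.66 and -3.17), and none was at 0 in all libraries. Between the *in vivo* weeks the markers rose, with 5 called higher and a median log2 fold change of 0.74. The log2 fold changes of *Aldh1a1* and *Aldh1a2* over that time were 0.95 and -0.77, neither of them called. *Upk1b*, a mesothelial membrane protein gene, averaged 71.2 ± 1.29 FPKM *in vitro* and 1.70 ± 0.02 FPKM *in vivo* at 1 week (SD, n = 2). The part of such cells in the dehydrogenase results was not tested, and in sorted bulk samples fewer cells of a type and less RNA per cell cannot be told apart.

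*Dhrs3* (chr4:144892827-144928209, plus strand), the retinal reductase that lowers the supply of retinal for oxidation and is itself a retinoic acid target, differed by less than the fold threshold. It measured 38.7 and 38.6 FPKM *in vivo* against 52.3 and 53.8 FPKM *in vitro* at 1 week, and 37.7 and 44.6 against 47.6 and 49.6 FPKM at 2 weeks. The *in vivo* libraries were below the *in vitro* libraries at both weeks without overlap. The log2 fold changes of -0.46 (adjusted p = 0.0048) and -0.24 (adjusted p = 0.046) by limma were not called. Among the other genes that oxidise retinol or reduce retinal, 9 of 18 were expressed enough to test and 1 was called, *Rdh10*, which oxidises retinol in the embryo. Its FPKM was 4.60 and 5.53 *in vivo* against 10.03 and 10.4 *in vitro* at 2 weeks (log2 fold change -1.01, adjusted p = 5.0e-04), and no gene of this group was called at 1 week, when 0 were higher and 4 lower at an unadjusted p under 0.05.

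Among the proteins that bind retinoic acid in the cytoplasm, *Crabp2* and *Fabp5* moved in opposite directions. *Crabp2* (chr3:87948666-87953376, plus strand), which delivers retinoic acid to its receptors, measured 6.07 and 7.37 FPKM *in vivo* against 0.540 and 0.760 FPKM *in vitro* at 1 week, and 9.65 and 9.86 against 0.383 and 0.334 FPKM at 2 weeks. The *in vivo* values rest on 94 to 144 fragments per library and the *in vitro* values on 6 to 15. All *in vivo* libraries lay above all *in vitro* libraries. It was 10.3-fold higher *in vivo* at 1 week (log2 fold change 3.19, SE 0.18, limma adjusted p = 2.5e-05) and 27.2-fold higher at 2 weeks (log2 fold change 4.43, SE 0.18, adjusted p = 4.7e-06), and the difference between the weeks, 1.23, was not called (adjusted p = 0.032).

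*Fabp5*, a fatty acid binding protein that also carries retinoic acid, measured 18.1 and 15.1 FPKM *in vivo* against 44.6 and 40.1 FPKM *in vitro* at 1 week. At 2 weeks it measured 7.23 and 6.02 FPKM *in vivo* against 43.2 and 48.1 FPKM *in vitro*. The log2 fold changes were -1.35 (adjusted p = 2.1e-04) and -2.77 (adjusted p = 7.1e-06), with no overlap at either week. The ratio of *Crabp2* to *Fabp5* FPKM was 0.00694 to 0.0189 *in vitro*, 0.336 to 0.487 *in vivo* at 1 week and 1.34 to 1.64 *in vivo* at 2 weeks. It combines genes that moved in opposite directions, so it is no evidence beyond their own changes. Its *in vitro* values rest on 6 to 15 fragments of *Crabp2*. Macrophages also express *Fabp5*, and their 10 markers, none of them at 0 in all libraries, moved the same way at 2 weeks with 5 lower and 1 higher, whereas at 1 week 1 was higher and 1 lower. Their part in the result was not tested. *Crabp1* (chr9:54764748-54773110, plus strand), the second cellular retinoic acid binding protein, gave 6 and 1 fragments *in vivo* and 0 and 0 *in vitro* at 1 week, and 0 and 3 against 0 and 5 fragments at 2 weeks, so a difference was not detectable at this depth.

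**Figure D3:**
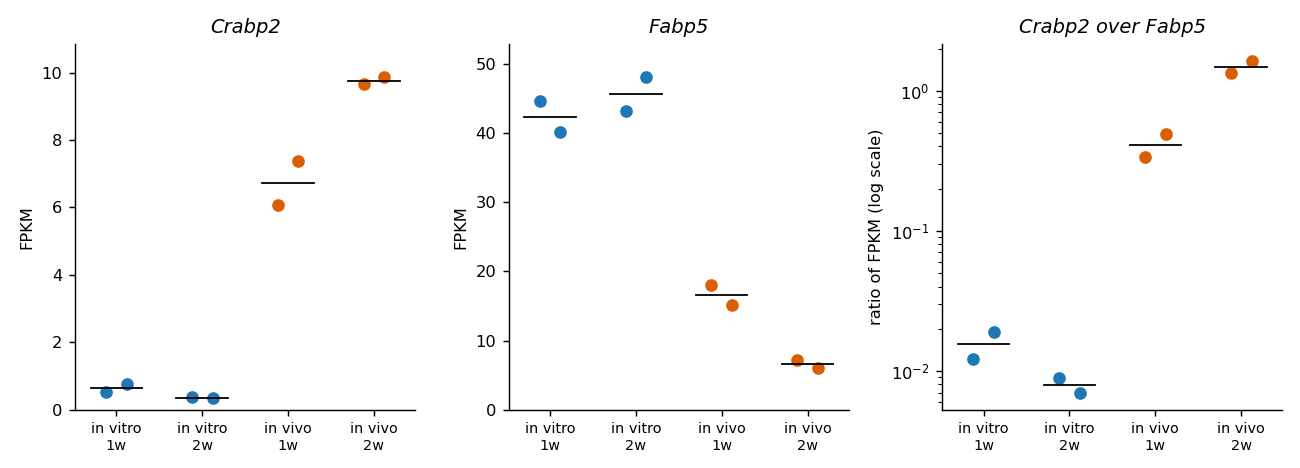
FPKM of the retinoic acid binding proteins *Crabp2* and *Fabp5* (left and middle) and the ratio of their FPKM on a log axis (right), with points for the 8 libraries and lines for group means. *Crabp2* goes from 0.334 to 0.760 FPKM *in vitro* to 6.07 to 9.86 FPKM *in vivo*, and *Fabp5* goes from 40.1 to 48.1 FPKM *in vitro* to 6.02 to 18.1 FPKM *in vivo*.

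*Rarb*, the receptor gene that retinoic acid itself induces in many cells, and *Cyp26a1*, an induced degrading enzyme, hold a repeat of the form of the classical retinoic acid response element near a start of transcription, and their promoter windows are printed for that reason. The element is a direct repeat of 2 core hexamers, here AGGTCA or its variants, which are AGTTCA and also GGGTCA besides the form GGTTCA, spaced by 5 bases and searched on both strands. It occurred in 32 of 32851 RefSeq promoter windows of GRCm38.p6 (0.0974%), each running from 250 bases before a gene's start to 50 bases after it. Of the 15 windows found for 8 of the 9 members, 1 held it, at a start of *Rarb* inside the gene's span, and of the 53 pathway genes with a window 2 held it. In the windows below, 5′ to 3′ on the strand of the gene, capitals mark the repeat, at chr14:16575513-16575529 in the *Rarb* window chr14:16575427-16575726 (minus strand) and at chr19:37697776-37697792 in the *Cyp26a1* window chr19:37697558-37697857 (plus strand).
Rarb: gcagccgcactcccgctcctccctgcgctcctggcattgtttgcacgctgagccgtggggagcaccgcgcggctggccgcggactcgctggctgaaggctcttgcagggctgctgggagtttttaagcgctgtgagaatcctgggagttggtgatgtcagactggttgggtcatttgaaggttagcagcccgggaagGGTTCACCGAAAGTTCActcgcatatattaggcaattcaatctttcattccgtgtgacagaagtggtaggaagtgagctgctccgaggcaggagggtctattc
Cyp26a1: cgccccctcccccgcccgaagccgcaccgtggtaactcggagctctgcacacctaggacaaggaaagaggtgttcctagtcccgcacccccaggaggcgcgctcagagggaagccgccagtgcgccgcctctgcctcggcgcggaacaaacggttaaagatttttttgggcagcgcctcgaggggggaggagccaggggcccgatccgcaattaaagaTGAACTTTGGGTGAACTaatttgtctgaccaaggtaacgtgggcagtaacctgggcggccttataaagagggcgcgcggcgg
The repeat lies 53 to 37 bases before the *Rarb* start and 32 to 16 bases before the *Cyp26a1* start, where it reads on the opposite strand. On its own strand it is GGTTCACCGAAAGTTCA for *Rarb* and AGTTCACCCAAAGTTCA for *Cyp26a1*. Repeats spaced by 2 bases were in 0.268% of all windows and in none of the 53 pathway genes, and repeats spaced by 1 base were in 0.222%, *Bco1* among them. A match in a window does not show that a receptor binds there, and the FPKM do not say which start of *Rarb* was used.

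*Rarb* (chr14:16430839-16819156, minus strand) was low throughout, at 1.17 and 1.11 FPKM *in vivo* against 0.864 and 0.916 FPKM *in vitro* at 1 week, and at 1.21 and 0.997 against 0.796 and 0.475 FPKM at 2 weeks. All 4 *in vivo* libraries were above the *in vitro* libraries of their week by a small margin. The log2 fold change was 0.32 at 1 week (95% interval -0.29 to 0.94, limma adjusted p = 0.36) and 0.74 at 2 weeks (0.13 to 1.36, adjusted p = 0.050), and neither was called. *Cyp26a1* measured 3.998 and 4.63 FPKM *in vivo* against 0.953 and 0.491 FPKM *in vitro* at 1 week, and 18.8 and 19.3 against 0.449 and 0.664 FPKM at 2 weeks. It was 5.98-fold higher *in vivo* at 1 week (log2 fold change 2.48, SE 0.28, adjusted p = 5.7e-04) and 34.3-fold higher at 2 weeks (log2 fold change 4.89, SE 0.28, adjusted p = 2.1e-05). Its rise *in vivo* between the weeks was called as well (log2 fold change 2.12, adjusted p = 0.0053), but this call was lost under 10 of 19 other settings, among them leaving out any 1 *in vivo* library or either *in vitro* library of 2 weeks (adjusted p from 0.011 to 0.054). The interaction of 2.41 was not called (adjusted p = 0.016).

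*Cyp26b1* (chr6:84571414-84593908, minus strand), a related degrading enzyme with no such repeat in its window, did not separate at 1 week, at 2.12 and 3.04 FPKM *in vivo* and 2.17 and 2.76 FPKM *in vitro*. At 2 weeks it measured 4.75 and 5.67 FPKM *in vivo* against 1.69 and 1.72 FPKM *in vitro*. The groups overlapped at 1 week and separated at 2 weeks. The log2 fold change was 0.05 at 1 week (adjusted p = 0.86), with a sign that turned under 2 other scalings, and 1.55 at 2 weeks (SE 0.20, adjusted p = 7.8e-04), while the difference between the weeks, 1.50, was not called (adjusted p = 0.024). *Cyp26a1*, *Cyp26b1* and *Cyp26c1* together came to 2.26 to 3.33 FPKM *in vitro*, to 6.22 and 7.89 FPKM *in vivo* at 1 week and to 23.7 and 25.7 FPKM *in vivo* at 2 weeks. Set against the 3 dehydrogenases, this was a ratio of 0.0142 to 0.0262 *in vitro*, 0.0846 to 0.107 *in vivo* at 1 week and 0.312 to 0.314 *in vivo* at 2 weeks, a ratio of transcripts and not of enzyme activities. The sums in this ratio moved in opposite directions, so it is no evidence beyond them.

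*Rarb* was a small part of the receptor transcripts, at 1.86 to 4.92% of the summed FPKM of *Rara*, *Rarb* and *Rarg*. That sum was 16.2 to 21.2 FPKM *in vitro* and 41.7 to 53.7 FPKM *in vivo*. *Rara* measured 13.3 to 14.7 FPKM in the 4 *in vivo* libraries and 5.43 to 7.08 FPKM in the 4 *in vitro* libraries, with log2 fold changes of 1.21 and 1.16 (limma adjusted p = 3.5e-04 and 3.3e-04), which were 0.88 and 0.84 without the scaling between libraries and then not called. *Rarg* measured 27.2 and 26.6 FPKM *in vivo* against 14.5 and 13.6 FPKM *in vitro* at 1 week, and 37.2 and 38.8 against 9.96 and 11.0 FPKM at 2 weeks. It was not called at 1 week (log2 fold change 0.94) and was called at 2 weeks (1.85, adjusted p = 3.6e-06). Their retinoid X receptor partners were not called, *Rxra* at -0.30 and -0.39 and *Rxrb* at 0.57 and 0.64 on the log2 scale. Of the 11 receptors and cofactors listed 10 were tested, with 1 higher at 1 week and 3 at 2 weeks, the third being *Nrip1*, a corepressor that retinoic acid induces (log2 fold change 1.12).

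The list of other genes known to respond to retinoic acid held 24 genes. Of the 20 tested, 1 was higher and 5 were lower *in vivo* at 1 week, and none was higher and 2 were lower at 2 weeks, with medians of -0.21 and -0.13. At an unadjusted p under 0.05, 5 were higher and 7 lower at 2 weeks. *Hoxa5*, a homeobox gene of the cluster that retinoic acid switches on in the embryo, measured 1.87 and 1.84 FPKM *in vivo* against 5.78 and 5.67 FPKM *in vitro* at 1 week, and 3.12 and 3.91 against 11.1 and 11.9 FPKM at 2 weeks. Its log2 fold changes were -1.58 and -1.70 by limma (adjusted p = 8.6e-05 and 4.8e-05). *Hoxa3*, *Hoxa4* and *Rarres1* were lower at 1 week (-1.66, -2.61 and -1.40). *Ret*, a receptor tyrosine kinase gene, was the 1 responsive gene called higher, at 1 week, with 0.505 and 0.760 FPKM *in vivo* against 0.125 and 0.0495 FPKM *in vitro* (log2 fold change 1.98, adjusted p = 0.0099). *Ret* passed the filter only through *in vivo* libraries, so its call cannot serve as evidence of a direction. The calls at 1 week were lost under 14 of 18 other settings for *Ret*, and of 19 settings under 10 for *Hoxa4*, 5 for *Hoxa3* and 3 for *Rarres1*. Over all 67 other pathway genes, 48 were tested. Of these, 4 were called higher *in vivo* and 7 lower at 1 week, against 6 in each direction at 2 weeks. *Ret* at 1 week and *Rbp7* at 2 weeks are among those higher, so these counts cannot serve as evidence of a direction either. Beside the counts of all these lists, 7.79% of all genes were called higher and 5.07% lower at 1 week. At 2 weeks these shares were 9.02% and 8.05%.

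**Figure D4:**
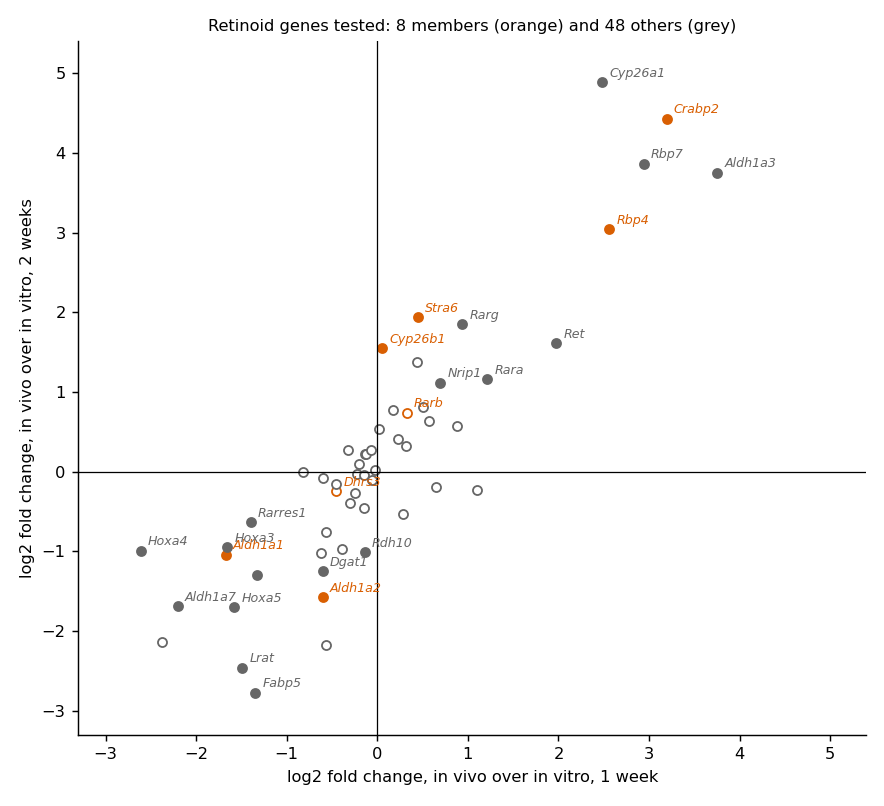
Log2 fold change *in vivo* against *in vitro* at 1 week (x axis) and at 2 weeks (y axis) for the 8 tested members (orange) and 48 other pathway genes (grey), 1 point per gene, filled where the gene was called at either week. *Cyp26a1*, *Crabp2* and *Aldh1a3* lie far up on both axes, and *Fabp5*, *Aldh1a1* and *Hoxa5* lie low on both.

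Between 1 and 2 weeks of culture, 0 of the 8 members were called in either direction, beside 2.76% of all genes called higher and 1.05% called lower. At an unadjusted p under 0.05 from limma 2 were higher and 2 lower in culture, and voom also called 0. In the heart *Rbp4* was called higher and none lower, beside 1.23% and 0.949%. These comparisons use the same libraries as those of each week. In the test of the difference between the weeks, 0 members were called, beside 0.573% of genes higher and 1.15% lower. At an unadjusted p under 0.05, 4 were higher and 1 was lower, and voom called 1, *Cyp26b1*. The members *Aldh1a2*, *Cyp26b1*, *Crabp2* and *Aldh1a1* had adjusted p-values from 0.0068 to 0.046 by limma.

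**Figure D5:**
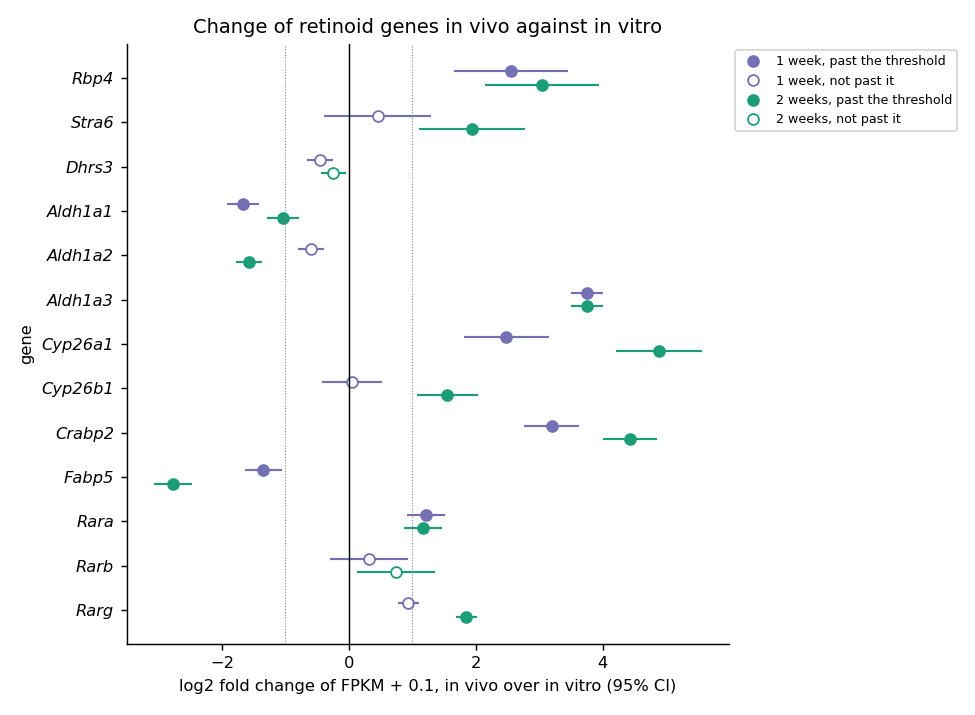
Log2 fold change of FPKM + 0.1 *in vivo* against *in vitro* for the 8 tested members and *Aldh1a3*, *Cyp26a1*, *Fabp5*, *Rara* and *Rarg* at 1 week and 2 weeks, filled where called, with bars for 95% intervals and dotted lines at a log2 fold change of 1 in each direction. *Crabp2*, *Aldh1a3* and *Cyp26a1* lie far to the right at both weeks, from 2.48 to 4.89, and *Cyp26b1* moves from 0.05 to 1.55.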

How the data were processed

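RNA of FACS-sorted eGFP+ cells was sequenced by the authors' provider, and the deposited values are FPKM per gene. The submitters' processing notes name CASAVA, HISAT2 2.0.5 and mm10, and the counting tool is not given in the sources used here. Within a library, every product of FPKM and gene length was a whole number of equal steps (tolerance 0.01), which gave the fragments behind each value, 12304242 to 14546904 per library. The library sizes behind the FPKM were 0.863 to 0.915 times the fragments *in vivo* and 1.09 to 1.15 times *in vitro*, so a scaling between libraries is part of the deposited values. Fragment counts carry counting error only.

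Values were compared as log2(FPKM + 0.1) by limma 3.58.1 in R 4.3.3, with 1 mean per group, moderated variances and an intensity trend, over the 15708 genes that reached 0.5 FPKM in 2 or more libraries, and Benjamini-Hochberg adjustment over all of them. DESeq2, the tool of the authors, takes counts and was not run here. The script was tested on simulated data. Contrasts were *in vivo* against *in vitro* at each week, the difference between the weeks, and 2 weeks against 1 week within each condition. The thresholds were 0.01 for the adjusted p and 1 for the size of the log2 fold change.

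The members, the pathway lists and the marker lists were chosen with earlier results of these data known. All members are named, as are the other pathway genes called at either week (the 15 with the largest changes), the receptors, and for each tested member the 3 protein-coding genes (5 FPKM or more on average) with the highest Pearson r over the 8 libraries. A few further genes, *Rdh10*, *Cyp26c1*, *Bco1*, *Nrip1*, *Upk1b* and *Fabp4*, were named after their values were seen. Some pathway genes that the counts include are not reported here by name. Alternatives were 2 other pseudocounts, 2 other filters, quantile normalisation, values without the scaling between libraries, a variance prior without trend, voom in limma on the recovered fragments, only the libraries of a comparison, the replicate number as a block, protein-coding genes only and leaving out each library in turn. Promoters were read from RefSeq windows of GRCm38.p6, which held no entry for *Crabp2*. Tables were made in Python 3.11.15 (pandas 2.3.3, numpy 2.4.6) and plots in matplotlib 3.10.9.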

Additional observations from a re-analysis of the deposited data

Results flagged for a closer look

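*Fabp5* was the 1 retinoid pathway gene called, by p and by fold, in the test of whether the difference between heart and culture changed between the weeks. *Rarg* (0.91, limma adjusted p = 0.0048) and *Aldh1a2* (-0.97, adjusted p = 0.0068) passed the p threshold and missed the fold threshold. The log2 fold change of *Fabp5* *in vivo* against *in vitro* went from -1.35 at 1 week to -2.77 at 2 weeks, an interaction of -1.42 (SE 0.18, limma adjusted p = 0.0064). The call was lost with no filter, with no variance trend, with the replicate number as a block (adjusted p = 0.013) and without any 1 of the 8 libraries (adjusted p from 0.014 to 0.037).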

How the results depend on the processing

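With 2 libraries per group, calls near the thresholds depended on the processing, and the cause of the moves was not tested. The number of members higher *in vivo* at 1 week went from 2 to 1 with a pseudocount of 1 and with only the libraries of the comparison, and was 1 to 2 without 1 library (1 without either *in vitro* library of 1 week). The number lower at 2 weeks was 1 to 2 without 1 library (1 without *in vitro* replicate 2 of 2 weeks), and the number higher at 2 weeks was 3 to 4. For the difference between the weeks, the number higher went from 0 to 1 (*Cyp26b1*) with voom and with protein-coding genes only, and the number lower was 0 to 1 without 1 library (*Aldh1a2*, without *in vivo* replicate 2 of 2 weeks). Between the *in vitro* weeks the number higher went from 0 to 1 with a pseudocount of 0.01 and with protein-coding genes only, and was 0 to 1 without 1 library (1 without *in vivo* replicate 1 of 1 week). Between the *in vivo* weeks the 1 higher member became 0 with a pseudocount of 0.01, no filter, a filter of 1 FPKM, no variance trend, only the libraries of the comparison and without any 1 library (0 to 0), 2 with protein-coding genes only and 3 with voom.

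Replicate numbers did not pair the libraries (r between conditions -0.020 at 1 week and -0.022 at 2 weeks). In a fit that takes the replicate number as a block, the count between the *in vivo* weeks was 0 and the members' other counts did not move.

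Of the other pathway genes, the 4 higher at 1 week were 2 without the scaling between libraries, which moves the median of all genes by -0.33 and -0.32 at the 2 weeks, and the 6 lower at 2 weeks were 11. The 7 lower at 1 week were 4 with no filter and 2 with only the libraries of the comparison, and 2 to 7 without 1 library (2 to 4 without any library of 1 week or either *in vitro* library of 2 weeks). The 6 lower at 2 weeks were 3 to 7 (3 without *in vitro* replicate 2 of 2 weeks).

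Signs turned for values near 0 or at low counts. *Cyp26b1* at 1 week was -0.0085 with quantile normalisation, -0.28 without the scaling, -0.20 without *in vivo* replicate 2 and -0.12 without *in vitro* replicate 1, in a range of -0.20 to 0.30 without 1 library. The interaction of *Rbp4* was -2.24 with a pseudocount of 0.01 and -1.05 with voom. Between the *in vivo* weeks, without *in vivo* replicate 2 of 2 weeks, *Rarb* was 0.084 (range -0.17 to 0.084 without 1 library) and *Dhrs3* -0.037 (range -0.037 to 0.21), and between the *in vitro* weeks *Cyp26a1* was 0.13 without *in vitro* replicate 1 of 1 week (range -0.70 to 0.13) and *Fabp5* -0.065 with quantile normalisation.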

Other observations

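The genes with the profile most like each member over the 8 libraries were taken by Pearson's r of log2(FPKM + 0.1), as a description. Since libraries of a group share their condition, high values of r arise easily, and nothing is read from them on shared function. *Crabp2* was closest to *Cacng7*, *Nfic* and *Ldlrad4* (r = 0.998 for each), *Rbp4* to *Tmem110*, *Ier2* and *Chtop* (0.994, 0.994 and 0.993), *Aldh1a1* to *Fam76a*, *Gsta4* and *Bmpr1a* (0.994, 0.992 and 0.991) and *Aldh1a2* to *Ajuba*, *Psrc1* and *Cd200r1* (0.991, 0.990 and 0.990). *Cyp26b1* was closest to *Pcdhgc3*, *Gart* and *Pold2* (0.985, 0.978 and 0.975), *Stra6* to *Zcchc24*, *Ptpn21* and *Svep1* (0.981, 0.981 and 0.976), *Dhrs3* to *Rem1*, *Cpeb1* and *Kitl* (0.973, 0.969 and 0.967) and *Rarb* to *Kmt2e*, *Synj2* and *Ccnl1* (0.972, 0.972 and 0.964). No member was among the 3 genes closest to another member.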
